A study of Homo sapiens with 6 samples.

Results

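Transcript levels of 9 genes of RAS-ERK signalling were compared between MDA-MB-231, a human triple-negative breast cancer line, and 231-BR, its brain-seeking derivative. The genes are the phosphatases DUSP4, DUSP5 and DUSP6, the inhibitors SPRY2, SPRY4 and SPRED1, the transcription factors ETV4 and ETV5, and the kinase BRAF. They were picked by symbol as readouts or parts of the pathway, with earlier results of these data known. All 9 were found among the 17039 genes of the expression table, and all 9 passed the filter on low values. RNA was sequenced from 3 libraries of each line, and values after ± are SDs over the 3 libraries of a line. Both lines were grown in DMEM with serum. Only the medium of 231-BR cells also held the antibiotic G418. The 231-BR line was a gift from another laboratory, while MDA-MB-231 was bought from ATCC. The line, its source and the antibiotic therefore cannot be told apart. 231-BR cells were selected from the parental line for growth in the brain and were profiled here in culture, without brain tissue. Titles of the libraries gave the groups, because the number in the cell line label counts up from 231 to 233 over the replicates of each group. The series calls the samples independent without naming separate cultures, so p-values measure the spread between these libraries, which may be technical.

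In the RAS-ERK pathway, receptors at the membrane switch on RAS, RAS activates the RAF kinases, and RAF passes the signal through MEK to ERK. Active ERK induces its own brakes. Dual-specificity phosphatases remove phosphate from ERK, Sprouty proteins dampen signalling between the receptor and RAF, and SPRED1 brings the RAS inhibitor neurofibromin to the membrane. ETV4 and ETV5, which with ETV1 form the PEA3 group of ETS factors, are also induced downstream of ERK. Transcripts of these genes are therefore widely used to read ERK output, and MDA-MB-231 is known for activating mutations in this pathway.

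Among the brakes within the 9 genes, DUSP4 and DUSP6 were more than doubled in 231-BR cells. DUSP5, SPRY2 and SPRED1 rose by smaller amounts, and only SPRY4 was lower. Of the rest of the 9, ETV4 and BRAF were lower, and ETV5 did not pass the test. Relatives of the brakes outside the 9 went in both directions. The test was limma on log2(FPKM + 0.1), a scale that understates changes of low genes, with Benjamini-Hochberg adjustment over 13465 tested genes. At an adjusted p under 0.05, 8 of the 9 genes were called, 5 of them higher in 231-BR cells and 3 lower. The lines were far apart across the transcriptome, with 77.3% of all tested genes called, 44.4% higher and 32.9% lower, so the counts for the 9 genes are near the background. A log2 change above 1 was reached by 2 of the 9 genes, against 10.9% of all tested genes, and one below -1 by 0 of 9, against 4.34%. In either direction, 15.2% of all tested genes passed that size. No overlap of libraries between the lines was seen for 8 of the 9 genes, against 78.4% of all tested genes. By direction, these were 5 of 9 higher against 44.9%, and 3 of 9 lower against 33.5%. The median log2 change was 0.42 for the 9 genes and 0.08 for all tested genes. In bulk RNA, fewer cells expressing a gene and less RNA per cell cannot be told apart.

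**Figure D1:**
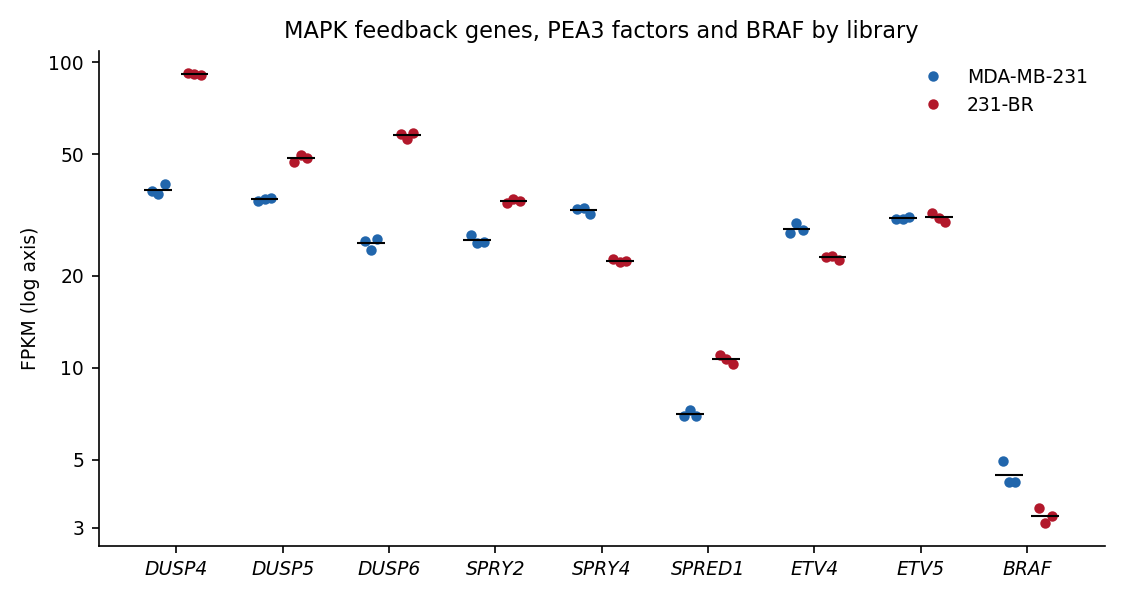
FPKM (log axis) of the 9 genes in each of 3 MDA-MB-231 (blue) and 3 231-BR (red) libraries, with black bars for the means. DUSP4 and DUSP6 show the widest gaps between the lines, SPRY4, ETV4 and BRAF lie lower in 231-BR cells, and the ETV5 points overlap.

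FPKM, the unit of all levels here, divides the fragments of a gene by the length of its transcript and by the mapped fragments of the library, so that genes can be ranked per length. Summed FPKM ran from 465020 to 472007 in the 231-BR libraries and from 486937 to 496420 in the parental libraries. No read counts are given, and the sequencing depth behind each value is unknown. Across 11124 genes averaging 1 FPKM or more, Pearson's r of log2 values ran from 0.9966 to 0.9981 within a line and from 0.9003 to 0.9025 between lines, a description across genes, which are not independent replicates. All 5 markers chosen for a mesenchymal breast cancer line, VIM, ANXA1, MSN, CD44 and the keratin KRT18, were present. They summed to 4358 to 4392 FPKM in 231-BR and 3624 to 3698 FPKM in parental libraries. VIM made up most of that sum, with means of 2553 and 2306 FPKM. VIM, ANXA1 and MSN were called higher in 231-BR cells, while CD44 and KRT18 were lower, with log2 changes of -0.47 and -0.37. Of 5 luminal and receptor markers, PGR and CDH1 stayed under 0.2 FPKM in every library, and the 5 summed to 11.85 to 12.5 FPKM in 231-BR and 5.92 to 6.36 FPKM in parental libraries. ERBB2, at 9.88 and 4.95 FPKM, made up most of that sum and was called higher in 231-BR cells, as was GATA3, at 1.24 and 0.433 FPKM. Of 10 markers of immune, endothelial, neural, fibroblast and liver cells, 6 stayed under 0.2 FPKM in every library, PTPRC, CD3E, GFAP, AQP4, RBFOX3 and ALB. The sum of the 10 ran from 102.9 to 106.5 FPKM in 231-BR and from 75.8 to 79.8 FPKM in parental libraries, nearly all of it from CD68 and MBP, and its part in the results was not tested.

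The phosphatases come first, as the enzymes that act on ERK itself. DUSP4, a nuclear phosphatase of ERK and other MAP kinases, had 91.95, 91.57 and 91.03 FPKM in the 231-BR libraries and 37.96, 36.89 and 39.99 FPKM in the parental libraries. Every 231-BR library lay far above every parental one, and the spread within each line was small. The means of 91.5 ± 0.462 and 38.3 ± 1.57 FPKM differ 2.39-fold, or by 1.26 on the log2 scale (SE 0.031, limma adjusted p = 2.9e-10). That change is larger in size than the changes of 89.3% of all tested genes. DUSP4 was the most expressed of the 9 genes in both lines.

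DUSP6, a cytoplasmic phosphatase that acts on ERK rather than on JNK or p38, had 58.04, 56.08 and 58.80 FPKM in 231-BR libraries against 25.89, 24.36 and 26.41 FPKM in parental libraries. The lines were again well separated, with means of 57.6 ± 1.40 and 25.6 ± 1.07 FPKM. The ratio of the means was 2.26, and the log2 change was 1.17 (SE 0.036, limma adjusted p = 1.2e-09). In the order of the 9 genes by level, DUSP6 stood in place 7 in the parental line and in place 2 in 231-BR cells. Exons of DUSP6 share 1875 bases with the antisense gene AC024909.2 in GENCODE release 29, and without strand the reads there cannot be assigned to either.

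DUSP5, the nuclear phosphatase with ERK as its substrate, had 47.10, 49.53 and 48.58 FPKM in 231-BR libraries and 35.23, 35.76 and 36.02 FPKM in parental libraries. Its groups did not overlap, but the rise was far smaller, 1.36-fold, or 0.44 on the log2 scale (95% confidence interval 0.38 to 0.50, limma adjusted p = 2.3e-07). The ratio of DUSP6 to DUSP5 within a library does not depend on how libraries are scaled. It was 1.19 ± 0.0526 in 231-BR and 0.716 ± 0.0305 in parental cells, so DUSP6 exceeded DUSP5 in 231-BR cells and fell short of it in the parental line. DUSP4 and DUSP6 moved nearly in step, and their ratio was 1.59 ± 0.0425 against 1.498 ± 0.0278.

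The other MAP kinase phosphatases were mixed. Of 7 further genes, 6 were tested, with 3 called higher and 2 lower and a median log2 change of -0.01. Of all tested genes, 44.4% were called higher and 32.9% lower. DUSP1, an early-response phosphatase with a preference for p38 and JNK, rose from 9.72 ± 0.223 to 21.8 ± 0.478 FPKM, a log2 change of 1.16 close to that of DUSP6. DUSP2, a nuclear phosphatase best known from immune cells, rose from 0.417 to 2.19 FPKM, or by 2.15 on the log2 scale. DUSP7, the cytoplasmic relative of DUSP6, had 32.8 and 31.0 FPKM and a log2 change of 0.08. Its call was lost without 231-BR replicate 1 (limma adjusted p = 0.085), after quantile normalization (0.15) and after median-of-ratios scaling, where the change was -0.0013.

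DUSP16 and DUSP8, which act mainly on JNK and p38, were lower, with log2 changes of -0.64 and -0.49. DUSP8 stayed under 1 FPKM and lost its call, by limma, without 231-BR replicate 2 or replicate 3 (adjusted p = 0.065 for each) and without MDA-MB-231 replicate 3 (0.081). DUSP10 had a log2 change of -0.11 (limma adjusted p = 0.075) and was called lower after median-of-ratios scaling, at -0.19, and after quantile normalization, at -0.28. DUSP9 averaged 0.0233 and 0.0367 FPKM and was not tested.

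Added up, the 10 MAP kinase phosphatases reached 263 ± 1.51 FPKM in 231-BR and 152 ± 3.04 FPKM in parental cells, a ratio of 1.74. DUSP4 supplied 34.7% of that sum in 231-BR cells and 25.2% in the parental line, and DUSP6 supplied 21.9% and 16.8%. DUSP5 went the other way as a share, from 23.5% in the parental line to 18.4%, although its level rose.

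**Figure D2:**
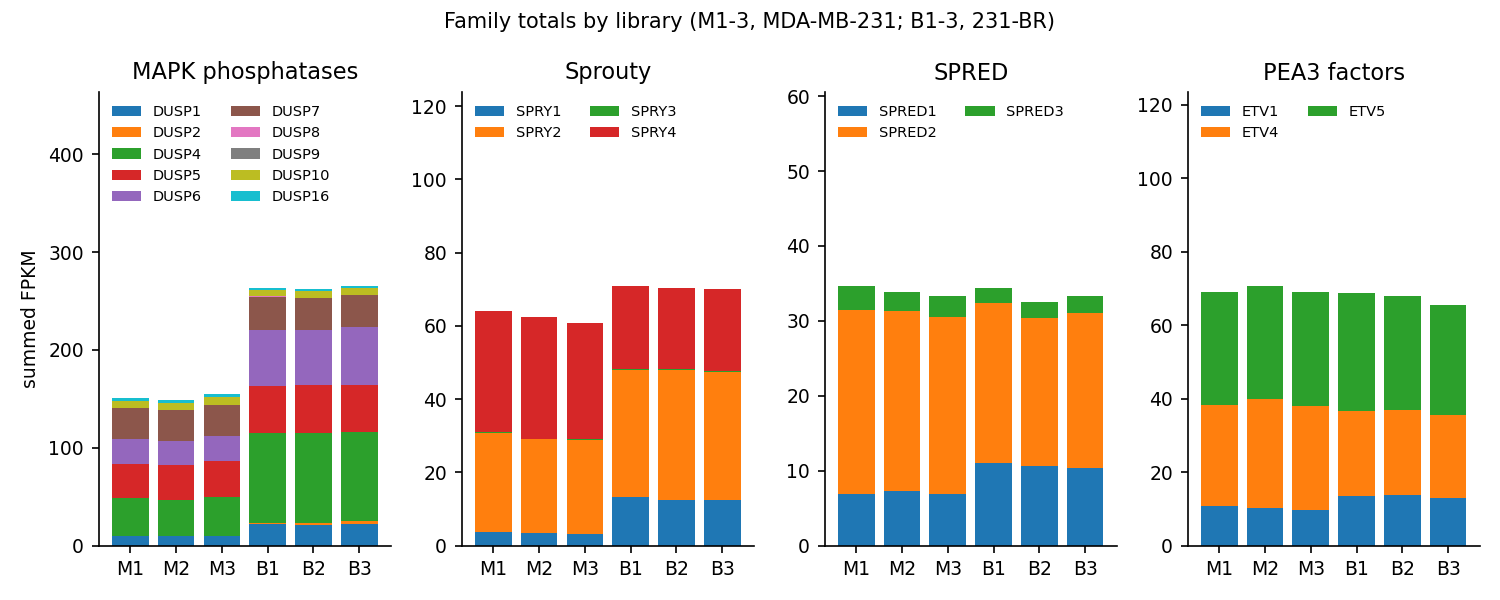
Summed FPKM per library (M1 to M3 for MDA-MB-231, B1 to B3 for 231-BR) of the MAP kinase phosphatases, Sprouty genes, SPRED genes and PEA3 factors, with each gene as a coloured part of the bar. The phosphatase total is 1.74 times higher in 231-BR cells, while the SPRED and PEA3 totals are close in both lines and their make-up differs.

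Among the Sprouty genes, SPRY2 and SPRY4 moved in opposite directions. SPRY2 had 34.56, 35.52 and 35.08 FPKM in 231-BR libraries and 27.20, 25.52 and 25.73 FPKM in parental libraries. All 231-BR values were above all parental ones, with a log2 change of 0.42 (95% confidence interval 0.35 to 0.49, limma adjusted p = 9.3e-07). SPRY4 had 22.65, 22.23 and 22.31 FPKM in 231-BR libraries against 33.08, 33.26 and 31.85 FPKM in parental libraries. Here every 231-BR library was lower, with a ratio of the means of 0.684 and a log2 change of -0.55 (95% confidence interval -0.61 to -0.48, limma adjusted p = 7.2e-08), the largest decrease of the 9 genes except after quantile normalization, where BRAF had -0.68 and SPRY4 -0.59. The ratio of SPRY2 to SPRY4 was 1.57 ± 0.0365 in 231-BR and 0.799 ± 0.0285 in parental cells.

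Promoter sequence from RefSeq on GRCh38.p14 was found for 5 of the 9 genes, BRAF, DUSP6, SPRY2, SPRY4 and SPRED1. SPRY2 and SPRY4 are shown because they are close relatives that moved in opposite directions here. Each sequence is the 250 bases before a start site listed by RefSeq, 5′ to 3′ on the strand of the gene (minus for both), with the ETS core GGAA or its reverse complement TTCC in capitals.
SPRY2, chr13:80341127-80341376: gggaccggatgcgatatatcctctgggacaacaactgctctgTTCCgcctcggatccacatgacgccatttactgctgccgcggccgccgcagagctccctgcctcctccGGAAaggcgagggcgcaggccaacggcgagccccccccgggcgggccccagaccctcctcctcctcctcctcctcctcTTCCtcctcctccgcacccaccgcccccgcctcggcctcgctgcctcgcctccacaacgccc
SPRY4, chr5:142324248-142324497: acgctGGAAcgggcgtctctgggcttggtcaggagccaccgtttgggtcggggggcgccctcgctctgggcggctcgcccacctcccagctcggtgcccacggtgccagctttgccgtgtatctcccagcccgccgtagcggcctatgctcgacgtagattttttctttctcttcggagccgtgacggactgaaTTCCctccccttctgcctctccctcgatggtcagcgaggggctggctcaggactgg
RefSeq lists 3 windows for SPRY2, and the one shown lies outside the gene span of GENCODE release 29. The SPRY4 window lies inside the gene span, which has start sites further upstream, and 170 of its bases are exonic there. The SPRY2 window holds 3 cores, and 44.9% of the 35116 promoter windows of this length hold fewer. The SPRY4 window holds 2, and 23.5% of windows hold fewer. The core is short and was found in 92.7% of all windows on either strand, with a median of 3. The other SPRY2 windows hold 4 and 4 cores, and those of BRAF and SPRED1 hold 3 each. The DUSP6 window holds 6, and 90.9% of windows hold fewer, but the DUSP6 and SPRED1 windows lie within annotated exons of those genes. The longer ETS motif CCGGAAGT, which contains the core, was found on either strand in 3.42% of windows and in 0 windows of the 5 genes. A match describes the letters and is not evidence of binding.

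SPRY1, a Sprouty gene outside the 9, rose from 3.46 ± 0.230 to 12.7 ± 0.527 FPKM, a log2 change of 1.84. SPRY3 was low in both lines, with 0.260 and 0.040 FPKM. It passed the filter only through 231-BR cells and so could only be called higher. The summed Sprouty level was 70.4 ± 0.339 FPKM in 231-BR and 62.4 ± 1.57 FPKM in parental cells. Within it, the share of SPRY4 went from 52.5% in the parental line to 31.8% and that of SPRY1 from 5.55% to 18.0%, so the leading Sprouty transcript was SPRY4 in the parental line and SPRY2 in 231-BR cells.

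SPRED1 had 11.04, 10.66 and 10.32 FPKM in 231-BR libraries and 6.95, 7.27 and 6.93 FPKM in parental libraries. The groups were apart, with a ratio of 1.51 and a log2 change of 0.59 (SE 0.045, limma adjusted p = 8.6e-07). Its relatives SPRED2 and SPRED3 were lower in 231-BR cells, with log2 changes of -0.22 and -0.41. SPRED2 was the most expressed of the family in both lines, with 20.6 ± 0.761 against 24.0 ± 0.480 FPKM. The summed SPRED level came to 33.4 ± 0.971 and 34.0 ± 0.636 FPKM, and the share of SPRED1 in it was 32.0% in 231-BR and 20.8% in parental cells.

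Of the PEA3 factors, ETV4 and ETV5 did not rise with DUSP4 and DUSP6. ETV4 had 23.02, 23.24 and 22.58 FPKM in 231-BR libraries and 27.51, 29.67 and 28.22 FPKM in parental libraries. Each 231-BR library was below each parental library, with a log2 change of -0.31 (95% confidence interval -0.39 to -0.23, limma adjusted p = 1.6e-05). Among 12 reference genes listed at the end, GAPDH and ACTB also had -0.31, so ETV4 did not fall relative to them, while 1, PGK1, was higher. ETV5 had 32.19, 30.94 and 29.97 FPKM against 30.76, 30.75 and 31.03 FPKM, and the libraries overlapped. Its log2 change was 0.01 (95% confidence interval -0.06 to 0.08, limma adjusted p = 0.83), and its sign turned after median-of-ratios scaling and after quantile normalization.

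ETV1, the other PEA3 factor, rose from 10.3 ± 0.574 to 13.5 ± 0.397 FPKM, a log2 change of 0.39. The sum of ETV1, ETV4 and ETV5 was 67.5 ± 1.69 FPKM in 231-BR and 69.6 ± 0.861 FPKM in parental cells. ETV5 held the largest share of it in both lines, 46.0% and 44.3%, while ETV4 held 34.0% and 40.9%.

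BRAF, the RAF kinase that phosphorylates MEK most efficiently, was the least expressed of the 9 genes. It had 3.47, 3.10 and 3.27 FPKM in 231-BR libraries and 4.95, 4.22 and 4.23 FPKM in parental libraries. The groups did not overlap, although MDA-MB-231 replicate 1 stood above the others, and the log2 change was -0.43 (SE 0.078, limma adjusted p = 5.6e-04). ARAF, a related RAF kinase, had 17.6 ± 0.450 and 25.4 ± 0.201 FPKM, a log2 change of -0.52, so it was lower in 231-BR cells as well.

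In GENCODE release 29, exons of BRAF share 1239 bases with NDUFB2, a mitochondrial complex I gene on the opposite strand. NDUFB2, looked up after the values of BRAF were seen, had 41.5 ± 3.19 FPKM in 231-BR and 77.6 ± 1.25 FPKM in parental cells. No strand-specific counting is described for these libraries, so reads of the shared bases cannot be assigned to either gene, and the part of this overlap was not tested. Exons of ETV4 share 68 bases with DHX8, also on the opposite strand. BRAF also has the pseudogene BRAFP1, and DUSP5 has DUSP5P1 and DUSP5P2, which makes both levels uncertain where reads match either copy.

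The order of the 9 genes by level differed between the lines. In the parental line it ran DUSP4, DUSP5, SPRY4, ETV5, ETV4, SPRY2, DUSP6, SPRED1 and BRAF, and among neighbours in that order only SPRY2 and DUSP6 overlapped. In 231-BR cells it ran DUSP4, DUSP6, DUSP5, SPRY2, ETV5, ETV4, SPRY4, SPRED1 and BRAF, with overlap only between ETV4 and SPRY4. The ratio of DUSP6 to SPRY4 within a library was 2.56, 2.52 and 2.64 in 231-BR and 0.783, 0.732 and 0.829 in parental cells, so the order of these transcripts was inverted in every library. An exact 2-sided permutation test of this log2 ratio gave p = 0.1, the smallest that 3 libraries against 3 allow. DUSP6 was higher and SPRY4 lower in every 231-BR library, so this result was fixed by those values and adds nothing to them. The ratio of DUSP6 to ETV4 was 2.51 ± 0.0958 and 0.899 ± 0.0679. For each of the 8 ratios computed between these genes and their relatives, the exact permutation p was 0.1, so none can pass an adjustment over the 8.

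**Figure D3:**
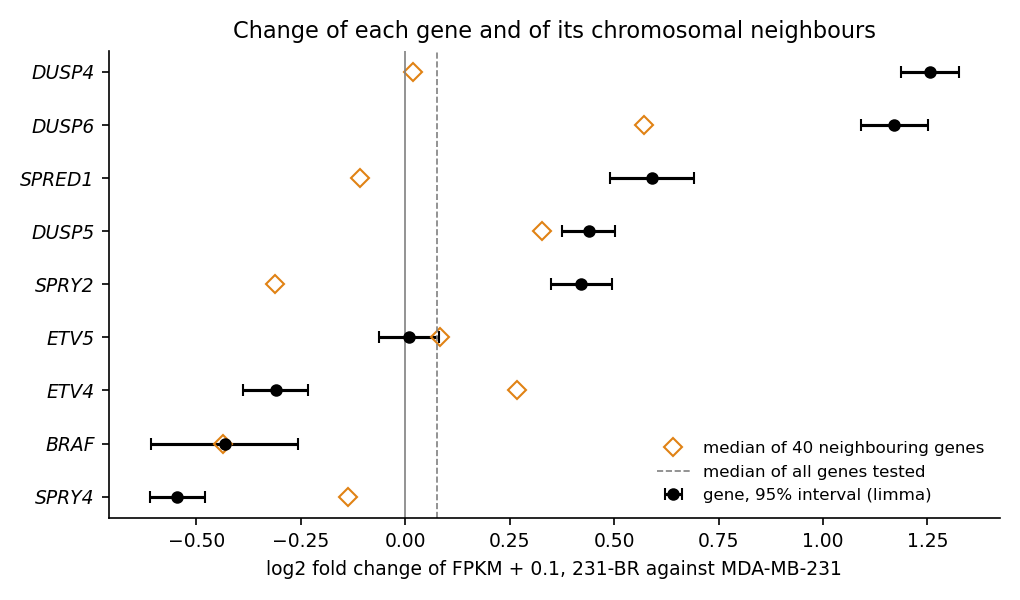
Log2 fold change of FPKM + 0.1 between the lines for each gene (points, with 95% confidence intervals from limma) beside the median of its 40 chromosomal neighbours (diamonds) and the median of all genes tested (dashed line, 0.08). DUSP4, DUSP6, SPRED1 and SPRY2 lie well to the right of their neighbours, SPRY4 and ETV4 to the left, and BRAF lies on the median of its neighbours.

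Each gene was also set beside its neighbours on the chromosome, as the median log2 change of the 20 expressed genes on either side, with no test. BRAF (chromosome 7, 140719327 to 140924928, GRCh38, GENCODE release 29) had neighbours with a median of -0.44, about its own value. DUSP6 (chromosome 12, 89347232 to 89353271) lay among genes with a median of 0.57, below its own 1.17. DUSP5 (chromosome 10, 110497838 to 110511544) had 0.44 beside a neighbour median of 0.33.

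DUSP4 (chromosome 8, 29333064 to 29350668) had a neighbour median of 0.02, and SPRED1 (chromosome 15, 38252326 to 38357249) one of -0.11. SPRY2 (chromosome 13, 80335976 to 80340951) rose where the neighbour median was -0.31. ETV4 (chromosome 17, 43527844 to 43579620) was lower where it was 0.27, and SPRY4 (chromosome 5, 142310427 to 142326455) was lower than the -0.14 around it. For ETV5 (chromosome 3, 186046308 to 186110318) the neighbour median was 0.08 with 20 genes and 0.22 with 10 genes on either side. The part of the neighbourhood in these changes was not tested.

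The rest of the pathway was described from lists, counted at the same threshold. Upstream, 231-BR cells had 12 of 16 tested receptor tyrosine kinases higher and 2 lower, with a median log2 change of 0.87. Of all tested genes, 44.4% were higher and 32.9% lower. PDGFRA, FLT1 and NTRK2 passed the filter only through 231-BR cells and so could only be called higher. With a filter at 1 FPKM, 8 receptors were higher and 2 lower. EGFR, the receptor of the EGF family, rose from 33.3 ± 2.91 to 91.2 ± 3.02 FPKM, and KDR, a VEGF receptor, from 0.523 to 1.52 FPKM. Of 28 tested genes of the RAS-ERK cascade itself, 11 were higher and 10 lower, beside 44.4% and 32.9% of all tested genes. The other 7 were not called, the median was 0.08, and 7 were higher after median-of-ratios scaling.

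HRAS and NRAS were lower, with log2 changes of -0.45 and -0.32. Of the MEK genes, MAP2K1 was lower by 0.15 on the log2 scale, a call lost with equal summed FPKM. MAP2K2 had 0.09 (limma adjusted p = 0.097), and was called higher in 4 alternatives, among them the fit without MDA-MB-231 replicate 3. MAPK3, which encodes an ERK kinase, rose by 0.57 on the log2 scale. The largest increases in the cascade were those of MRAS, a RAS relative, with 1.87, and of the adaptor GAB2 with 1.08.

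Among RAS-GTPase activating proteins and other inhibitors, 9 of 15 tested genes were higher and 3 lower, with a median log2 change of 0.71. The shares over all tested genes were 44.4% higher and 32.9% lower. SPINT2, an inhibitor of the proteases that activate hepatocyte growth factor, rose from 10.1 ± 0.255 to 82.4 ± 0.841 FPKM, a log2 change of 3.02. RASAL2, a RAS-GTPase activating protein, rose by 1.12 on the log2 scale, and PEBP1, known as a RAF kinase inhibitor, by 1.00. Of 16 other tested ETS factors, 6 were higher and 5 lower, beside the same 44.4% and 32.9%, with a median of -0.03. ETS2 was lower, with 9.96 ± 0.444 against 22.2 ± 0.499 FPKM, and SPDEF, an epithelial ETS factor, rose from 0.0733 to 2.67 FPKM. SPDEF passed the filter only through 231-BR cells and so could only be called higher.

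Other transcripts known to answer to ERK were split between the directions. Of 24 tested, 11 were higher and 11 lower, beside 44.4% and 32.9% of all tested genes, with a median log2 change of -0.04. CCND1, the cyclin D1 gene, and PHLDA1 rose by 0.38 and 0.40 on the log2 scale, and EGR1, an immediate early factor, went from 0.660 to 2.60 FPKM. FOSL1, an AP-1 subunit, had a log2 change of -0.40 and EPHA2, an ephrin receptor, one of -0.12, though the call of EPHA2 was lost with equal summed FPKM. The cytokine gene LIF, with -2.24, IER3, with -1.73, and CSRNP1, with -1.10, were lower. EPHA4, another ephrin receptor, rose by 2.35 on the log2 scale, and PLAT, tissue plasminogen activator, went from 6.76 to 27.2 FPKM. Under quantile normalization the share of higher genes among all those called went from 57.4% to 45.6%, and the median of all tested genes shifted from 0.08 to -0.06 on the log2 scale.

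**Figure D4:**
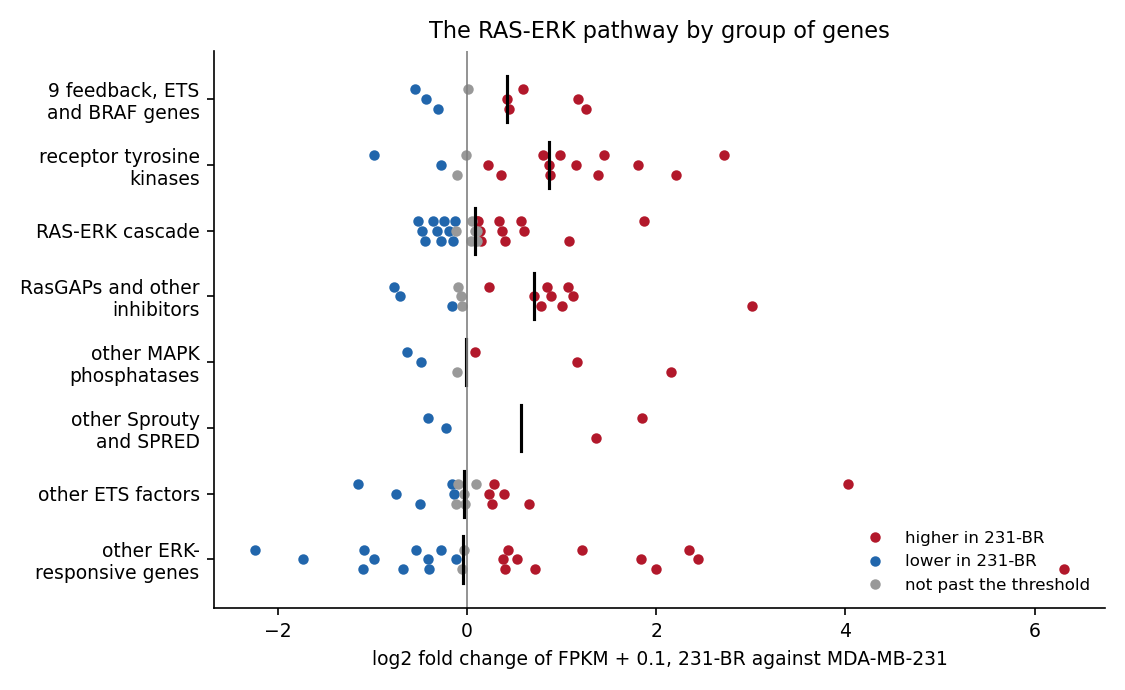
Log2 fold change of FPKM + 0.1, 231-BR against MDA-MB-231, of each tested gene of the 9 and of the pathway lists, red where higher, blue where lower and grey where not past an adjusted p of 0.05, with a black bar at each median. Receptor tyrosine kinases and inhibitors lie mostly to the right of 0, with medians of 0.87 and 0.71, while the cascade and the ERK-responsive genes lie on both sides.

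The genes most like DUSP4 and SPRY4, the genes of the 9 with the largest increase and decrease without quantile normalization, were sought by the Euclidean distance between log2 profiles over the 6 libraries, each centred on its own mean. Among 11124 genes, GM2A and PACS2 were among the nearest to DUSP4, at distances of 0.070 and 0.071. GM2A had 12.1 FPKM in 231-BR and 5.06 FPKM in parental cells, beside 91.5 and 38.3 FPKM for DUSP4. Those nearest to SPRY4 were SMC1A, NDRG3 and NCAPD2, at distances of 0.030, 0.042 and 0.044. The 6 libraries fall into 2 lines, so these distances are set mostly by the change between the lines.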

How the data were processed

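Poly(A) RNA of 3 231-BR and 3 MDA-MB-231 libraries was sequenced by the authors, filtered with SOAPnuke and aligned with HISAT2 (2.0.4) and Bowtie2 (2.2.5), per the paper's methods and the submitters' processing notes, which name GRCh38.p12. The deposited values are FPKM per gene with 2 decimals, and the program that computed them is not given in the sources used here. All 6 library files held the values of the series table. Of 1238 genes above 0 and at most 0.3 FPKM throughout, 166 had equal values in 231-BR replicates 1 and 2. The values are FPKM without read counts, so no count test was run. In R 4.3.3, limma 3.58.1 (lmFit, eBayes with a trend) compared the lines on log2(FPKM + 0.1) for the 13465 genes averaging 0.1 FPKM or more, with Benjamini-Hochberg adjustment, after a test on simulated data. Python 3.11.15 (pandas 2.3.3, matplotlib 3.10.9) served for summaries and figures. Alternatives were pseudocounts of 1 and 0.01, no filter or a filter at 1 FPKM, 3 scalings, eBayes without the trend, a replicate block and leaving out each library in turn.

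The 9 genes and the gene lists were chosen with earlier results of these data known. The text names the 9 genes, the other phosphatase, Sprouty and SPRED genes, and a fixed set of cascade and ERK-responsive genes. From every other pathway list it names at most 4 genes in each direction that were called, changed by over 1 on the log2 scale and averaged at least 1 FPKM in either line. Some genes that this rule names are not reported here. Other genes named are markers, reference genes or overlapping genes.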

Additional observations from a re-analysis of the deposited data

How the results depend on the processing

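For the 9 genes, 132 of 135 values from 15 alternative fits kept their direction and their side of the threshold, and 8 genes were called in each fit. The exception was ETV5, called in 0 fits, with a log2 change of -0.075 after median-of-ratios scaling, -0.032 after quantile normalization, and -0.019 to 0.033 with 1 library left out, the lowest without 231-BR replicate 1. Leaving out libraries moved DUSP4 between 1.23 and 1.29, SPRY4 between -0.56 and -0.53 and BRAF between -0.47 and -0.36, and BRAF had -0.68 after quantile normalization. At a log2 change beyond 1 in size, 2 genes were higher and 0 lower. Replicate numbers did not pair the libraries, with correlations of deviations of 0.087, -0.040 and -0.106. With a replicate block 5 of the 9 genes were higher and 3 lower, as without it, and 10502 of all genes were called against 10406. MAP2K2 was then called higher (limma adjusted p = 0.021), and the cascade had 13 genes higher and 9 lower.

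Of 39 other named genes, DUSP7 (-0.0013) changed sign after median-of-ratios scaling. That scaling left 8 other ETS factors and 5 inhibitors lower and 7 cascade genes higher. Quantile normalization left 8 other ETS factors, 6 inhibitors and 4 receptor tyrosine kinases lower and 7 cascade genes higher. With equal summed FPKM 3 other ETS factors were lower. The cause of these shifts was not tested. A filter at 1 FPKM, which tests fewer genes, left 1 other phosphatase lower and 1 other Sprouty or SPRED gene higher. With 1 library left out, 1 to 2 other phosphatases were lower, and the count was 1 without 231-BR replicate 2, 231-BR replicate 3 or MDA-MB-231 replicate 3. Without read counts, no limit from depth can be set.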

Other observations

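Genes for ligands of EGFR, which feed the pathway and also answer to it, went in both directions. EREG, epiregulin, had 32.2 ± 0.289 FPKM in 231-BR against 0.307 ± 0.0306 FPKM in parental cells (SD over 3 libraries), and AREG, amphiregulin, rose from 1.34 to 7.71 FPKM. HBEGF was lower, with 50.6 against 108.1 FPKM, and so was TGFA, named after its values were seen, with 2.74 against 5.48 FPKM.

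Of 12 reference genes, 9 were lower in 231-BR cells, 1 was higher and 2 were not called. Of all tested genes, 32.9% were lower and 44.4% higher. Their median log2 change was -0.26, and it was -0.35 after median-of-ratios scaling and -0.11 after quantile normalization. GAPDH had -0.31, ACTB -0.31 and PGK1 0.36, whereas TBP had -0.08 (adjusted p = 0.19 by limma).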
